A study of Danio rerio with 8 samples.

Results

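Papilins and dermatopontin are secreted proteins of the extracellular matrix. Papilin was first known from basement membranes of Drosophila and carries thrombospondin type 1 repeats and Kunitz domains (a fold of serine protease inhibitors) in an arrangement related to the non-catalytic part of ADAMTS metalloproteases. Drosophila papilin was shown to inhibit a procollagen N-proteinase of the ADAMTS family. Dermatopontin is a small tyrosine-rich protein named after the dermis, which binds decorin, fibronectin and TGF-beta and promotes the assembly of collagen fibrils. In mice that lack it, the skin is lax and the corneal stroma is thin.

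The zebrafish genes examined here were the papilin paralogs paplna and paplnb and the dermatopontin gene dpt, 3 of the 14462 genes on the array, each with 1 probe. They were chosen by name with the cornea-to-epidermis ratios of the same arrays known, since paplnb and dpt lay among the lowest genes. Their ratios are therefore given as a description, without a test. Total RNA of the cornea was hybridised together with RNA of the epidermis, both from adult wild type zebrafish of the AB2O2 strain with no treatment. The 8 two-colour arrays were 4 biological repeats, each on a pair of arrays with the dyes exchanged. Corneae of 30 eye globes were pooled per repeat. They were dissected by forceps from sclera, lens, iris, muscle and retina, and how complete this was is not known here. Epidermis was not separated from the scraped scales that carried it, so cells of the scales can be part of that sample. Every value is a log2 ratio of cornea over epidermis, below 0 where the signal was higher in epidermis. No spot intensities were used, so it cannot be said how strong either tissue's signal was. In such tissue samples, fewer cells of a type and less RNA per cell cannot be told apart.

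Gene names and direction rest on steps taken after deposition. The annotation met the values only after the feature numbers were rearranged on the probe grid. With the rearranged grid the first and second probe of a gene correlated at r = 0.340 over 5098 genes, against 0.0191 with the numbers as given. Arrays of opposite dye orientation in a repeat correlated at r between 0.390 and 0.515, so the ratios had been turned to a common order of the tissues. The sign was taken from how the labels name the comparison and from 36 genes that the study, after its own arrays, measured by RT-qPCR as more abundant in cornea than in dermis. Of these, 22 were found by symbol, of which 20 were called higher in cornea and 1 lower. The probes of paplnb and dpt carry RefSeq transcripts that are listed under these genes today. The probe of paplna carries a model transcript that is no longer among the 42 RefSeq transcripts of the gene, although the gene ID matched.

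The papilin paralogs stood on opposite sides. On the arrays with cornea in Cy5, paplnb had log2 ratios of -6.90, -6.07, -6.46 and -6.92 in repeats 1 to 4, and on those with cornea in Cy3 it had -6.99, -6.38, -6.62 and -7.08. All 8 arrays thus gave a far higher signal in epidermis, with ratios between -7.08 and -6.07. The mean was -6.68 ± 0.37 (SD, n = 4 repeats here and below), a signal 102-fold lower in cornea. Without spot intensities, it cannot be said whether the cornea signal stood above background. The folds of paplnb, and of dpt below, are therefore those of the processed ratios. Among all genes, 1 lay below paplnb, the cytochrome P450 gene cyp8b1.3.

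For paplna the log2 ratios with cornea in Cy5 were 0.90, 1.61, 1.81 and 1.25 in repeats 1 to 4, and with cornea in Cy3 they were 0.86, 1.49, 1.68 and 1.21. All 8 arrays were above 0, towards cornea, with repeat 1 lowest. The mean was 1.35 ± 0.38, a signal 2.55-fold higher in cornea, and 865 genes lay above it. A common name as an epidermis gene hence fits paplnb but not paplna. For paplna this rests on 1 probe, whose transcript is no longer listed under the gene. Within a repeat, paplnb minus paplna was -7.83, -7.77, -8.29 and -8.23 log2 units. This gap (-8.03 ± 0.27) varied less than either gene did, while that of paplnb minus dpt (-2.66 ± 1.07) varied more. Repeats 1 and 4 were lowest for both papilins, but also for the laminin gene lamb4 (1.85, 2.43, 2.16 and 1.72). The order of repeats is thus not particular to papilins, and whether the paralogs vary together was not tested. The arrays of paplna and paplnb do not overlap. Only 1 gene lay below paplnb, which was chosen with its low ratio known, so this separation carries no information.

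Dermatopontin lay with paplnb on the side of the epidermis. With cornea in Cy5, dpt had -2.44, -4.65, -4.25 and -4.66 in repeats 1 to 4, and with cornea in Cy3 it had -3.17, -4.60, -4.07 and -4.27. Repeat 1 was the least negative on arrays of either orientation. The mean was -4.01 ± 0.83, a signal 16.2-fold lower in cornea, and 9 genes lay below it. Without repeat 1 the mean was -4.42 ± 0.24 over the other 3 repeats, a signal 21.4-fold lower in cornea. Its arrays reached from -4.66 to -2.44, and those of paplnb from -7.08 to -6.07. Both genes were chosen with their low ratios known, so the lack of overlap carries no information.

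**Figure D1:**
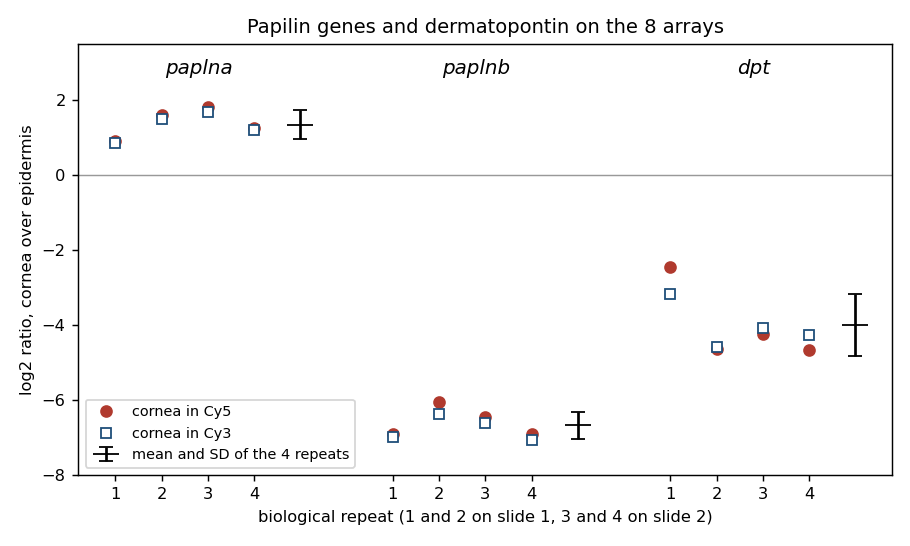
Log2 ratio of cornea over epidermis (vertical axis) of paplna, paplnb and dpt in the 4 repeats (horizontal axis), with a filled circle for the array with cornea in Cy5, an open square for that with cornea in Cy3, and a bar for mean and SD over repeats. All arrays of paplna lie above 0 and all of paplnb and dpt below, and repeat 1 of dpt, at a mean of -2.81, lies above its other repeats, between -4.63 and -4.16.

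Measures that did not choose the genes were their agreement between dyes and slides and their spread. Arrays of a repeat differed by 0.04 to 0.13 log2 units for paplna, by 0.09 to 0.31 for paplnb and by 0.06 to 0.73 for dpt. Averaged over repeats these gaps were 0.08, 0.18 and 0.34, against a median of 0.44 over all genes. The values of these 3 genes were thus closer under exchanged dyes than those of most genes, each averaged over its probes. Since no spot intensities were used, genes of like signal strength were not compared. The dye effect, the departure of arrays with cornea in Cy5 from the mean of both orientations, was 0.04 for paplna, 0.09 for paplnb and 0.01 for dpt, with adjusted p = 0.719, 0.516 and 0.965 in limma. It was called in 0 of 14462 genes (0%), although 1735 had an unadjusted p under 0.05.

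Slide 2 minus slide 1 gave a difference of 0.27 for paplna (slide means 1.49 and 1.22), -0.19 for paplnb (-6.77 and -6.58) and -0.59 for dpt (-4.31 and -3.72). The adjusted p of limma was 0.9997 for each, with 2 repeats a slide. Here too 0 genes (0%) were called and 478 had an unadjusted p under 0.05. Without repeat 1 the sign of the dpt difference turned, to 0.31, and that of paplna, to -0.06. The sign for paplnb turned without repeat 2 (0.18) or repeat 4 (0.04). The SD between repeats of dpt exceeded that of 94.7% of genes, those of paplna and paplnb that of 62.4% and 60.5%.

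The genes nearest to each of the 3 were taken by the root mean square difference over the 8 arrays, in log2 units, with clone-style names left out. Around paplna they lay close, between 0.14 and 0.18. They were atp1a1b, a sodium pump alpha subunit gene (1.43 ± 0.34), the unconventional myosin gene myo1ea (1.40 ± 0.48), the ectonucleotidase gene entpd2a.1 (1.30 ± 0.36, with probes at 0.14 and 2.46), the nucleolar protein gene nol12 (1.43 ± 0.22) and appa (1.34 ± 0.21). The last encodes an amyloid precursor protein, a family in which some members carry a Kunitz domain.

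Few genes came near paplnb. The nearest was cyp8b1.3 at a difference of 0.55 (-7.05 ± 0.22), and the next was already 1.37 away, the enamelin gene enam (-5.35 ± 0.25). The ectonucleotidase gene nt5e (-4.79 ± 0.49), the biglycan gene bgna (-4.75 ± 0.44) and the homeobox gene hoxc9a (-4.32 ± 0.61) followed at 1.95 to 2.50. For dpt the nearest was hoxc9a at 0.40, whose 3 probes lay between -6.44 and -2.72. Then came the forkhead gene foxd1 (-3.64 ± 0.59), the paraoxonase gene pon3.2 (-3.71 ± 0.38), the claudin gene cldn7a (-4.21 ± 0.69) and igfn1.1 (-4.05 ± 0.40), at 0.53 to 0.63. Like dpt, hoxc9a (-3.40), foxd1 (-2.81), pon3.2 (-3.28) and cldn7a (-3.33) were least negative in repeat 1, while igfn1.1 was not. Outside this group, bgna was also least negative in repeat 1 (-4.19), whereas enam was most negative there (-5.68). The trait is thus not particular to dpt. Being near in ratio to a gene at an extreme follows from how these genes were found, and no test was made.

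**Figure D2:**
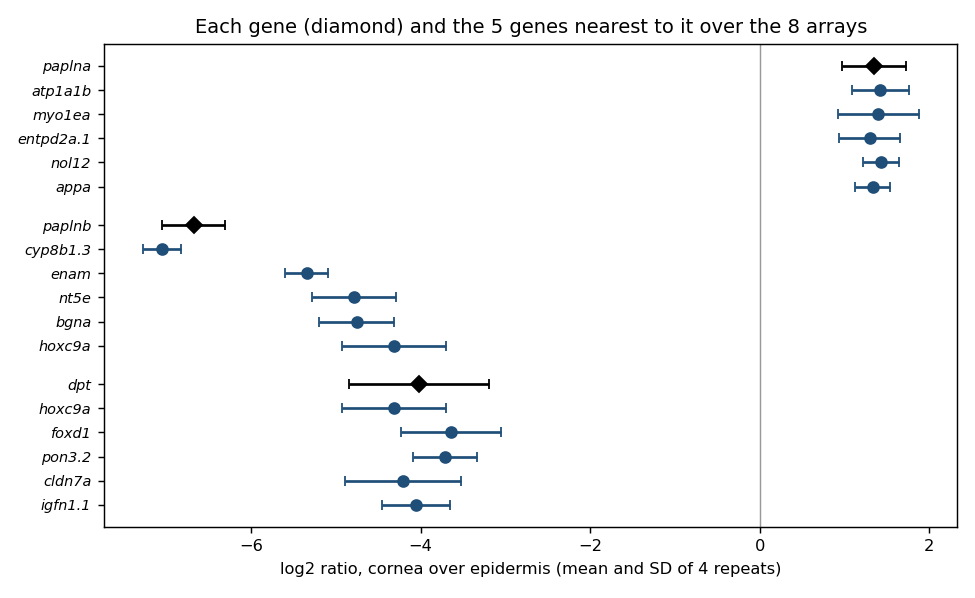
Mean and SD over 4 repeats of the log2 ratio of cornea over epidermis (horizontal axis) for paplna, paplnb and dpt (diamonds), each followed by the 5 named genes nearest to it over the 8 arrays (circles). The neighbours of paplna lie within 1.30 to 1.43, while those of paplnb spread from -7.05 to -4.32.

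Other genes of the same protein families and of the matrix around them were then counted. These genes were tested in the fit over all genes, in which 36.7% were called at an adjusted p under 0.05 by limma, 22.9% as higher and 13.8% as lower in cornea, and the median log2 ratio was 0.03. Of 76 measured genes in 6 matrix lists, 23 were higher (30.3%) and 12 lower (15.8%), with a median of 0.21. The share of lower genes was near that of all genes, and no test of either share was made.

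Of proteins with thrombospondin type 1 repeats and papilin-like domains, 12 of 30 listed genes were measured, none of them an ADAMTS-like gene. Of these, 3 were higher in cornea (25%, against 22.9% of all genes), 2 lower (16.7%, against 13.8%) and 7 not called (median 0.08), shares near those of all genes. The gene of the secreted Wnt enhancer R-spondin 1, rspo1 (2.49 ± 0.17), and the spondin gene spon1b (1.19 ± 0.10) were higher, and spon2b (-1.54 ± 0.42) and thsd7aa (-0.47 ± 0.16) lower. The adjusted p values were 8.08e-05, 5.95e-04, 0.00115 and 0.0280. For thsd7aa, leaving out any of the 4 repeats took the adjusted p above 0.05 (0.0564 to 0.109). Of the ADAMTS proteases themselves, 3 of 20 listed genes were measured, and 0 were called. They were adamts1 (0.20), adamts2a (-0.16), which belongs to the procollagen N-proteinases, and adamts12 (-0.11), and by unadjusted p under 0.05 the count was also 0.

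Of Kunitz-domain genes, 13 of 24 listed were measured, and 5 were higher (38.5%, against 22.9% of all genes), 1 lower (7.69%, against 13.8%) and 7 not called (median 0.42). The paralogs of hepatocyte growth factor activator inhibitor 1, an inhibitor of the protease matriptase, stood on opposite sides, with spint1b at 2.81 ± 0.64 (adjusted p = 3.88e-04) and spint1a at -1.16 ± 0.27 (0.00139). By contrast, appa (adjusted p = 6.12e-04) and its paralog appb (1.12 ± 0.05, 6.68e-04) were both higher. The gene of tissue factor pathway inhibitor, tfpia, was higher too (0.71 ± 0.34, adjusted p = 0.0154, 0.0667 without repeat 3, probes at 0.27 and 1.16).

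Of genes whose proteins bind dermatopontin or take part with it in collagen and fibronectin matrix, 17 of 38 were measured. Of these, 6 were higher in cornea (35.3%, against 22.9% of all genes), 3 lower (17.6%, against 13.8%) and 8 not called (median 0.22). The decorin gene dcn, encoding a binding partner, had 2.84 ± 0.19 (adjusted p = 6.43e-05), and the integrin gene itgb1b 2.23 ± 0.28 (1.65e-04). Lower were bgna, whose product biglycan is the closest relative of decorin (4.14e-05), and bmp1b of the procollagen C-proteinase family (-2.39 ± 0.45, 2.82e-04). The genes dpt and dcn lay on opposite sides of 0 in these arrays. Since dpt was chosen with its ratio known and the study lists dcn among its cornea genes, this is description only.

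Fibrillar collagens, the fibrils on which dermatopontin acts, were higher in 2, lower in 3 and not called in 2 of 7 measured of 16 listed cases (28.6% and 42.9%, against 22.9% and 13.8% of all genes; median -0.05). The type I collagen genes col1a1b (-2.50 ± 0.76, adjusted p = 9.79e-04) and col1a1a (-1.44 ± 0.71, 0.00691) were lowest, though the probes of col1a1a stood at -3.63 and 0.75. The genes col11a2 (0.61 ± 0.32, 0.0239) and col5a2a (0.60 ± 0.21, 0.0143) were higher. The call of col11a2 was lost without repeat 1 (0.0657), 2 (0.0775) or 4 (0.0974), and that of col5a2a without repeat 4 (0.0667).

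Of basement membrane genes, the matrix in which papilins were first found, 24 of 43 were measured, and 7 were higher (29.2%, against 22.9% of all genes), 3 lower (12.5%, against 13.8%) and 14 not called (median 0.27). Highest were sparc, encoding a collagen-binding matrix protein (2.19 ± 0.21, adjusted p = 1.29e-04, probes at 0.71 and 3.67), and the laminin gene lamb4 (2.04 ± 0.32, 2.50e-04). Lowest were smoc2 (-1.01 ± 0.43, 0.00653) and the laminin gene lamb2l (-0.59 ± 0.41, 0.0438). Under a replicate block plus dye term the adjusted p was 0.100 for smoc2 and 0.0916 for lamb2l, and for lamb2l it was also above 0.05 without repeat 2 (0.0946), 3 (0.134) or 4 (0.0906).

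**Figure D3:**
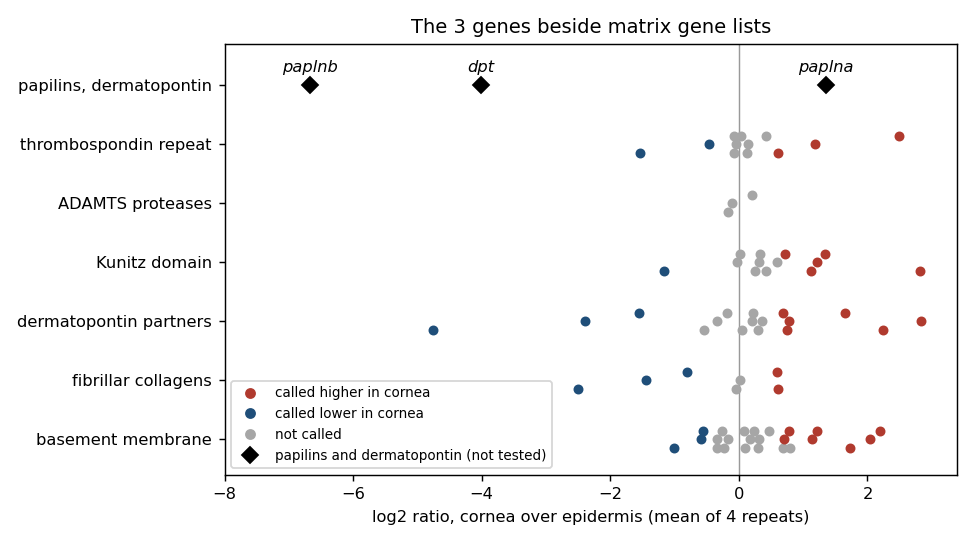
Mean log2 ratio of cornea over epidermis over 4 repeats (horizontal axis) of paplna, paplnb and dpt (diamonds, untested) and of the genes of 6 matrix lists (circles, 1 row a list), coloured by their call at an adjusted p under 0.05. The lowest list gene is bgna at -4.75, and paplnb, chosen as one of the lowest genes of the array, lies at -6.68.

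Markers of cells that could be in either sample were counted in the same way, beside 22.9% of all genes called higher and 13.8% called lower in cornea. Of 25 dermal fibroblast markers 11 were higher in cornea (44%) and 2 lower (8%), with prrx1a (2.75 ± 0.32) and ccn2a (2.65 ± 0.49) highest and cthrc1a (-1.81 ± 0.38) and thy1 (-1.12 ± 0.94) lowest. Of 19 genes listed for scale osteoblasts and scale formation 2 were higher (10.5%) and 6 lower (31.6%). Highest were alpl (2.28 ± 0.37) and sparcl1 (0.52 ± 0.29), and lowest enam and dlx5a (-2.14 ± 0.37). Of 28 markers of keratinocytes, the main cells of epidermis, 16 were higher in cornea (57.1%) and 2 lower (7.14%). Highest were zgc:111983 (4.21 ± 0.17) and scel (3.43 ± 0.51), and lowest krt93 (-1.32 ± 0.36) and cdh1 (-0.64 ± 0.34). The cornea has an epithelium of its own, which is continuous with the epidermis. It also has a stroma, whose keratocytes the study describes as derived from neural crest. The study had listed zgc:111983, scel and others of these markers as cornea genes from its array screen, so their side was known beforehand. These counts therefore do not show how much epidermis or dermis either sample held. Since each value is a ratio, it was not possible to see whether a marker was absent from either tissue. Calls were lost for thy1 without repeat 2 (adjusted p = 0.0915) or 4 (0.0770) and with the replicate block (0.129), for sparcl1 without repeat 2 (0.105), 3 (0.138) or 4 (0.0928), and for cdh1 without repeat 1 (0.0696) or 3 (0.0908). Also with a larger share of lower calls than all genes were leukocyte markers, with 9 of 22 lower (40.9%) and 6 higher (27.3%), vascular endothelial markers, with 6 of 21 lower (28.6%) and 4 higher (19.0%), and erythroid markers, with 4 of 18 lower (22.2%) and 1 higher (5.56%). Mucous cell and ionocyte markers had 3 of 17 in either direction (17.6%). Of skeletal muscle markers 7 of 25 were higher (28%) and 2 lower (8%). Highest were atp2a1 (3.04 ± 0.64) and ckma (1.78 ± 0.69), and lowest pvalb2 (-0.68 ± 0.43) and casq1a (-0.49 ± 0.30), both of which lost the call under some left-out repeats. Of pigment cell markers 6 of 18 were higher (33.3%) and 2 lower (11.1%). No test of these shares was made. The part of these cells in the values of paplnb and dpt was not tested.

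Position in the genome was not used to choose the genes. Of the 5 genes on either side in RefSeq order, 3 of 10 were measured around paplnb, and 0 of these were called (1 by unadjusted p under 0.05). Since 36.7% of all genes were called in either direction, 0 calls among 3 genes is not unusual. They were erh (-0.10 ± 0.32), smek1 (-0.10 ± 0.09, with probes at -0.94 and 0.73) and the potassium channel subunit gene kcnf1a (-1.12 ± 1.28, adjusted p = 0.103). Few genes of the array lay near paplnb (-6.68), which was chosen with its low ratio known. The distance of these means from it therefore carries no information. Between repeats kcnf1a varied widely. With 3 measured genes, it cannot be said whether the region shares the low ratio of paplnb.

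Of 4 measured genes of 10 around dpt, 3 were called higher in cornea and 0 lower, where 22.9% of all genes were called higher and 13.8% lower, a count that rests on few genes. The gene next to it, atp1b1a, which encodes a sodium pump beta subunit, had 1.99 ± 0.32 (adjusted p = 2.79e-04, probes at 1.38 and 2.59), rpl5b of the ribosome 0.94 ± 0.17 (0.00191) and nme7 0.66 ± 0.34 (0.0200). The transcription factor gene zbtb11 on the other side was not called (0.40 ± 0.27, 0.0768). Around paplna 5 of 10 were measured, 1 called higher and 3 lower. They included eipr1 (1.43 ± 0.43, adjusted p = 0.00164) and stxbp6 (-1.87 ± 0.16, 1.74e-04, with 1 of 8 arrays above 0). Every repeat mean of stxbp6 was -1.75 or lower, so in the repeat with that array the dye orientations lay far apart. The SD over averaged repeats does not show this gap, and with the replicate block and dye term its adjusted p was 0.00624. The others were trappc12 of a vesicle tethering complex (-0.71 ± 0.32, 0.0139), adi1 of methionine salvage (-0.60 ± 0.27, 0.0205) and fermt2, encoding an integrin activator (-0.18 ± 0.45, 0.510). The call of nme7 was lost without repeat 1 (0.0630), 2 (0.0687) or 4 (0.0664), that of adi1 without 2 (0.0693), 3 (0.0834) or 4 (0.0581), and that of trappc12 without 2 (0.0513) or 3 (0.0604).

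**Figure D4:**
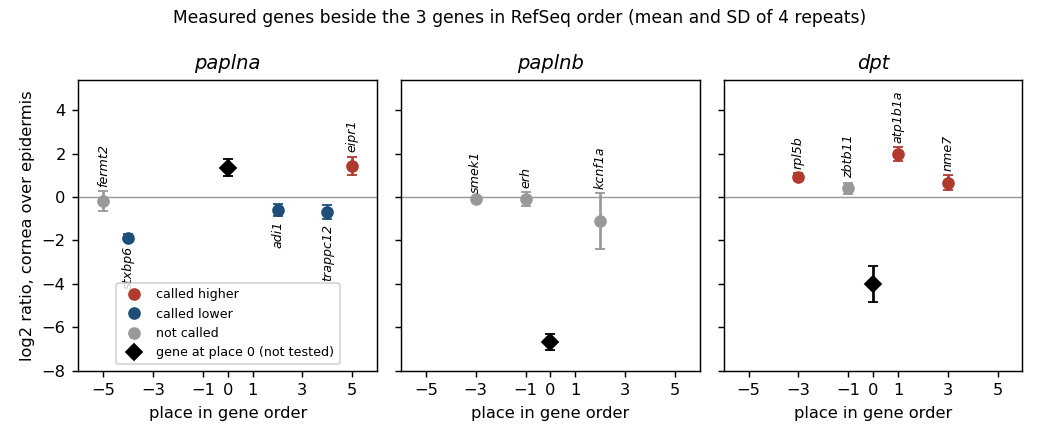
Mean and SD over 4 repeats of the log2 ratio of cornea over epidermis (vertical axis) against the place in RefSeq gene order (horizontal axis, in genes) for the measured genes within 5 places of paplna, paplnb and dpt, which are the diamonds at place 0. The 4 measured genes around dpt lie between 0.40 and 1.99 and dpt at -4.01.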

How the data were processed

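Log2 ratios of 8 arrays were deposited. Per the methods, the authors scanned with GenePix, corrected the background by the minimum method, and normalised within arrays and by Aquantile between arrays in limma (version: not given in the sources used here). As log base, 2 follows limma's convention. The array medians lay between -0.0195 and 0.00915.

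Arrays of a repeat share their RNA extracts and were averaged (n = 4). The labels name this pairing; deviations correlated at 0.0213 to 0.0899 within and -0.0924 to 0.0370 across repeats. Probes of a gene were averaged (21061 probes with 1 symbol, 24159 features unnamed). The fit by lmFit and eBayes (limma 3.58.1, R 4.3.3) covered all 14462 genes, two-sided, with Benjamini-Hochberg adjustment over them, and was tested on simulated data. Alternatives were single dyes or slides, left-out repeats, 1 probe a gene, median centring, the block, treat and the unrearranged numbers. P-values test a mean, dye effect or slide difference against 0, relative to its variation between these repeats as moderated over all genes. Other software was Python 3.11.15, pandas 2.3.3, numpy 2.4.6 and matplotlib 3.10.9.

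The genes and 15 lists were chosen with earlier results of these data known. Named were the 3 genes, the 5 nearest genes of each, their measured neighbours within 5 places, and the 2 highest and 2 lowest called genes of each list. The last are given for the matrix, fibroblast, osteoblast, keratinocyte and muscle lists. The gene appb was added as the paralog of appa, outside the counts of named genes. Neighbours and accessions come from RefSeq (GRCz12tu). The number of arrays limits the precision.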

Additional observations from a re-analysis of the deposited data

Results flagged for a closer look

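Of 82 genes examined over the 4 repeats, 4 had a repeat far from the other 3, a rate near the 1 in 20 that chance gives. Of the genes nearest to dpt and paplnb, hoxc9a was least negative in repeat 1 (-3.40, against -4.74 to -4.52 in the others). The fibroblast marker prrx1a was highest in repeat 1 (3.23, against 2.56 to 2.62). The spondin gene spon1b was highest in repeat 2 (1.33, against 1.13 to 1.16). Next to paplna, fermt2 was above 0 in repeat 3 alone (0.50, against -0.48 to -0.34). None of paplna, paplnb and dpt was set apart in this way.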

How the results depend on the processing

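The mean log2 ratios of paplna, paplnb and dpt moved by 1 SD or more only with the feature numbers as given. There, other features carry these names (0.17, -0.19 and -1.05). Most other settings could not have moved them that far. Leaving out 1 repeat or 1 slide must shift such a mean by less than 1 SD. Each gene has 1 probe, the block leaves the means unchanged, and the array medians were near 0. With 1 repeat left out the means ranged from 1.22 to 1.51, from -6.83 to -6.57 and from -4.42 to -3.81. The dye effect ranged from 0.03 to 0.05, from 0.07 to 0.10 and from -0.104 to 0.0836, and the slide difference from -0.0614 to 0.60, from -0.55 to 0.18 and from -1.50 to 0.31, with 0 calls.

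Of all genes, 3315 were higher and 1994 lower in cornea, with 2466 to 2975 and 1329 to 1879 when 1 repeat was left out (1329 without repeat 3). Counts were 1400 and 639 within slide 1 (repeats 1 and 2), 2190 and 1224 within slide 2, 113 and 24 with limma's treat against a 2-fold change at an adjusted p under 0.001, and 1944 higher with the numbers as given. In the matrix lists 23 and 12 became 19 to 23 and 9 to 10 without 1 repeat, 12 higher within slide 1, 6 lower within slide 2, 2 and 1 with treat, and 13 higher with the numbers as given. The cause was not tested, but slides hold fewer samples. The replicate block with a dye term (correlation 0.336) gave 3473 higher and 2135 lower genes, and among named genes it ended the calls of smoc2, lamb2l, thy1 and pvalb2 (adjusted p = 0.0696).

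Of 79 named genes, 74 were called, and 29 lost the call or turned sign under some setting. Signs turned for erh within slide 1 (0.0936), fermt2 within slide 2 (0.0788) and with cornea in Cy3 (0.0679), lamb2l (0.0066) and smek1 (0.10) with cornea in Cy3, and smek1 with the probe of smallest variance (0.73). The probe of smallest variance also ended the call of entpd2a.1 (adjusted p = 0.467). No named gene was followed through the numbers as given.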
